A study of Homo sapiens with 12 samples.

Results

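Protein phosphatase 1 (PP1) was described at the RNA level through 9 genes out of the 26485 in each deposited table. They were the genes of its 3 catalytic subunits (PPP1CA, PPP1CB and PPP1CC) and of 6 proteins that bind and regulate them (PPP1R14B, PPP1R14C, PPP1R12A, PPP1R2, PPP1R8 and PPP1R11). Members were taken by exact gene symbol, and all 9 were in both tables. The group was chosen by the measured values of PPP1R14B, which had passed the authors' test under the 6T sgRNA, so its difference there is given as a description and supports nothing else.

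PolyA RNA came from the human embryonic kidney line HEK293T, transfected with PX330-GFP type plasmids by polyethylenimine, with 2 ug of DNA and 6 ul of polyethylenimine per well. The 4 groups of 3 libraries were cells given Cas9, a DNA-cutting nuclease, with the 6T sgRNA, cells given the 6T sgRNA without Cas9, cells given Cas9 with the Luciferase sgRNA, and cells given the Luciferase sgRNA without Cas9. An sgRNA is the single guide RNA that directs Cas9, and human cells have no luciferase gene. The deposited tables call the conditions A and B and do not state which of them held Cas9, nor whether the order is the same under both sgRNAs. Differences are given as B over A or B minus A, and no direction can be tied to Cas9. The labels do not say that replicates were separate cultures, so p-values measure only the spread between these libraries.

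PP1 removes phosphate from serine and threonine in a wide range of proteins, and its catalytic subunits do so as part of complexes with regulatory proteins that choose the substrate, the place in the cell or the activity. PPP1R12A, also called MYPT1, brings the beta catalytic subunit to myosin. PPP1R14B, also called PHI-1, and PPP1R14C, also called KEPI, are phosphorylation-dependent inhibitors related to CPI-17, which is best known for holding back myosin phosphatase in smooth muscle.

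PPP1R14B lies on hg38 chr11:64244480-64246941, minus strand, and PPP1R14C on chr6:150143076-150250357, plus strand, in the GENCODE v29 annotation. PPP1CA is also on chromosome 11, at chr11:67398183-67421183, while PPP1CB is at chr2:28751640-28802940 and PPP1CC at chr12:110719680-110742939. PPP1R12A spans chr12:79773563-79935460, PPP1R2 chr3:195514425-195543386, PPP1R8 chr1:27830778-27851676 and PPP1R11 chr6:30066709-30070333. The exons of PPP1R14B overlap those of the antisense RNA AP001453.2 and the lincRNA AP001453.3, neither of which is a row of the tables. PPP1CA shares exonic positions with RAD9A and PPP1R11 with RNF39, both on the opposite strand, and PPP1R12A with PPP1R12A-AS1. Strand use in the authors' counting is not stated, so reads of these partners cannot be told apart. GENCODE also names 3 pseudogenes after PPP1R14B, 6 after PPP1R2, 2 after PPP1R11 and 1 after PPP1R8, none of them a row of the tables, and these 4 genes are uncertain to that extent.

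The promoters of PPP1R14B, its relative PPP1R14C and PPP1R35 are shown because PPP1R14B and PPP1R35 were the listed PP1 genes whose libraries of 6T condition A were all low, and PPP1R14C was not. Each is the 250 bases before the transcription start from RefSeq (GRCh38.p14), with every GGGCGG or CCGCCC, the letters of a GC box on either strand, in capitals. They span chr11:64246944-64247193 (minus strand), chr6:150142794-150143043 (plus strand) and chr7:100436498-100436747 (minus strand), in this order.
PPP1R14B: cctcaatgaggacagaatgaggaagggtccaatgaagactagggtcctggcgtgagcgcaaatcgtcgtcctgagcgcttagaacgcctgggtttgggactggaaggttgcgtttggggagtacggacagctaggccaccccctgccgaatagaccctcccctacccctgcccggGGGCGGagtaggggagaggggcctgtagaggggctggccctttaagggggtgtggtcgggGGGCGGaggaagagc
PPP1R14C: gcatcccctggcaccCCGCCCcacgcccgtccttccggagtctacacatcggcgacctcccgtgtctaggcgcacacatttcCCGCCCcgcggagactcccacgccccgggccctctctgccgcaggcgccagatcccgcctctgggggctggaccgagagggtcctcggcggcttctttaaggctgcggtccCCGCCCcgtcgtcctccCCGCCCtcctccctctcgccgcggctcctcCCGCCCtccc
PPP1R35: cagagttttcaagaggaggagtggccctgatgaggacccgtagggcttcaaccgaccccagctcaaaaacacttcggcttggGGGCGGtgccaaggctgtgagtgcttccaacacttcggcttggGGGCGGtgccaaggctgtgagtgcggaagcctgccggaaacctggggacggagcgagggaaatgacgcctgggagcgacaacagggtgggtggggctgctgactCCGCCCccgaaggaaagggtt
The window of PPP1R14B holds 2 of these motifs, that of PPP1R14C 5 and that of PPP1R35 3. Of all RefSeq windows of this length, 42.6% hold at least 1 and 13.9% hold 3 or more. These matches describe the windows only. The GC content of the windows was 63.2% for PPP1R14B, 74.0% for PPP1R14C and 62.8% for PPP1R35, against a median of 58.0% over all windows.

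The unit throughout is the normalized read, a library's read count divided by the authors' size factor. The tables hold only means over 3 libraries, and the whole reads of each library were recovered from them. For all 36 means of the members a single set of whole reads gave the deposited value. Libraries are called B1 to B3 and A1 to A3 in order of size factor, which is a name and not a replicate number. Reads in genes were 6652129 to 8286610 per library in 6T condition B, 6367765 to 8235226 in 6T condition A, 19344444 to 38274348 in Luciferase condition B and 5870972 to 8240993 in Luciferase condition A. Of each total, 16.1% to 25.7% was estimated from group means and size factors, for genes whose reads were not recovered. Of the 8 marker genes of HEK293T cells that were listed, all were present, from LHX1 at group means of 89.8 to 104 up to VIM at 5078 to 5710 normalized reads. Of 6 markers of other cell types, HBB and CD3E were at 0, PTPRC, NPHS1 and ALB reached at most 7.92, and COL1A1 stood at 497 to 534.

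PPP1R14B had 1502, 1274 and 1332 normalized reads in the libraries of 6T condition B, against 820, 877 and 748 in those of 6T condition A. Under the Luciferase sgRNA it had 1402, 1141 and 1018 normalized reads in condition B and 1160, 1407 and 1200 in condition A. Condition A of the 6T sgRNA was the low group: its 3 libraries lay below each of the other 9, which ranged from 1018 to 1502. B and A libraries did not overlap in the 6T table and did in the Luciferase table. Of 13698 genes with a mean of at least 10 normalized reads and libraries recovered in all 4 groups, 147 (1.07%) had all 3 libraries of 6T condition A below the other 9. In bulk RNA, fewer cells that express a gene and less of its RNA per cell cannot be told apart.

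**Figure D1:**
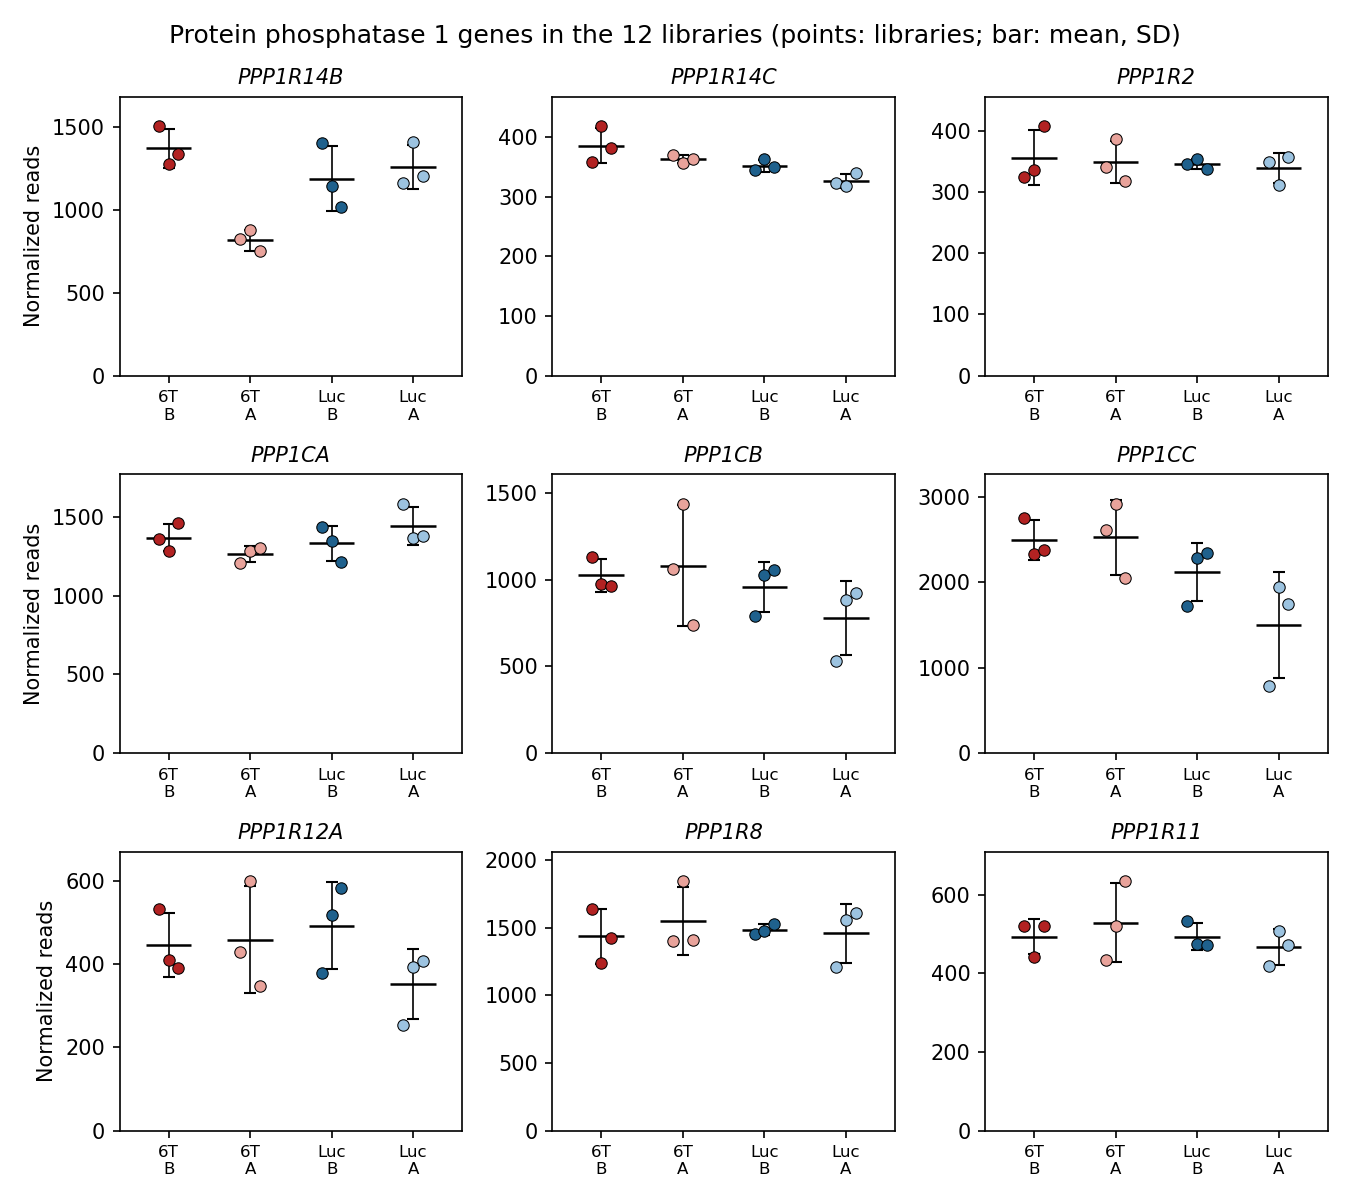
Normalized reads (y axis, from 0) of the 9 PP1 genes in each library, with groups along the x axis (Luc, Luciferase sgRNA; B and A, the deposited conditions). Points are libraries, bars the group mean and SD of 3; PPP1R14B in 6T condition A (748 to 877) lies below its other 9 libraries, and no other member shows this.

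In the authors' deposited table, PPP1R14B averaged 1369 normalized reads in 6T condition B and 815 in 6T condition A, a 1.68-fold difference (log2 0.75, adjusted p = 0.00666 in the authors' DESeq test). The SDs over the recovered libraries were 118 in condition B and 64.6 in condition A (n = 3 each). This is the call that led to the choice of the members. The authors' test called 8 of 19246 genes (0.0416%) under the 6T sgRNA, 3 of them (0.0156%) higher in condition B. Limma on the recovered libraries gave the same size, a log2 fold change of 0.75 ± 0.10 (SE), but called no gene (0%) past an adjusted p of 0.05, with an adjusted p of 0.120 for PPP1R14B and 337 of 13850 genes (2.43%) at an unadjusted p under 0.05.

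Under the Luciferase sgRNA, PPP1R14B averaged 1187 ± 196 normalized reads in condition B and 1256 ± 133 in condition A (SD, n = 3 each). The authors' log2 fold change was −0.08, with an adjusted p of 1 in their DESeq test, and limma gave −0.09 ± 0.13 (SE), with an adjusted p of 0.742. The authors' test called 0 of 20194 genes (0%) in this table, with 246 (1.22%) at an unadjusted p under 0.05, and limma called 0 with 1357 of 13778 (9.85%) at an unadjusted p under 0.05.

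The difference between the sgRNAs in the B over A change of PPP1R14B, 6T minus Luciferase, was 0.84 ± 0.17 on the log2 scale (SE, limma over 12 libraries). Its unadjusted p was 0.000255 and its adjusted p was 0.479. No gene passed the adjusted threshold in this contrast (0 of 13698, 0%), and 1319 (9.63%) had an unadjusted p under 0.05. The contrast uses the 6T libraries that chose PPP1R14B, and it assumes that A and B mean the same in both tables.

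The recovered size factors matched a single normalization over all 12 libraries to within 0.144%, which put both sgRNAs on a shared scale. It does not show that a condition letter means the same under both sgRNAs. A comparison within a letter may therefore also be between cells with and without Cas9. Every comparison of sgRNAs within a condition has this limit, those of PPP1CC and PPP1R10 included. In condition A, PPP1R14B was 0.62 ± 0.12 higher on the log2 scale with the Luciferase sgRNA than with the 6T sgRNA (SE, limma adjusted p = 0.0487), and 135 of 13698 genes (0.986%) passed, with 31.6% at an unadjusted p under 0.05. This value rests on the same low 6T libraries and is not independent of the choice of PPP1R14B. The call was lost in 9 of the 12 fits that left out a library (adjusted p 0.0554 to 0.145), with no filter on low counts (adjusted p = 0.0585) and after correction for GC content (0.35, adjusted p = 0.179). In condition B, PPP1R14B was at −0.22 ± 0.12 with the Luciferase relative to the 6T sgRNA (limma adjusted p = 0.946), and 0 of 13698 genes (0%) passed, with 738 (5.39%) at an unadjusted p under 0.05.

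PPP1R14C, the other member of the same inhibitor family, had 358, 418 and 381 normalized reads in 6T condition B and 369, 356 and 363 in 6T condition A. With the Luciferase sgRNA it had 344, 363 and 349 in condition B and 322, 317 and 339 in condition A. Its libraries overlapped in the 6T table, and in the Luciferase table those of condition B lay above those of condition A by a narrow margin. The authors' log2 fold change was 0.09 in the 6T table and 0.11 in the Luciferase table, both with an adjusted p of 1 in their DESeq test. PPP1R14A, which encodes CPI-17 itself, averaged 228 normalized reads in condition B and 204 in condition A under the 6T sgRNA (log2 0.16), and 201 in condition B and 238 in condition A under the Luciferase sgRNA (log2 −0.24), with an adjusted p of 1 in both. PPP1R14D stayed between 1.66 and 3.09 normalized reads in the group means and was not compared. Of the inhibitor family, PPP1R14B was the measured member whose 6T condition A libraries stood apart.

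PPP1CA, the alpha catalytic subunit, had 1363, 1288 and 1461 normalized reads in 6T condition B and 1209, 1283 and 1307 in 6T condition A. Under the Luciferase sgRNA it had 1437, 1353 and 1215 in condition B and 1586, 1369 and 1382 in condition A. The groups overlapped in both tables, with authors' log2 fold changes of 0.11 (6T) and −0.11 (Luciferase) and adjusted p-values of 1.

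PPP1CB, the beta subunit, had 1131, 978 and 965 normalized reads in 6T condition B and 1064, 1438 and 740 in 6T condition A. Under the Luciferase sgRNA it had 792, 1027 and 1056 in condition B and 534, 881 and 921 in condition A. The 6T condition A libraries of this gene covered the whole range of condition B, and the authors' log2 fold change was −0.08 there and 0.30 under the Luciferase sgRNA, with adjusted p-values of 1.

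PPP1CC, the gamma subunit, had 2760, 2331 and 2385 normalized reads in 6T condition B and 2609, 2920 and 2055 in 6T condition A. Under the Luciferase sgRNA it had 1727, 2291 and 2341 in condition B and 786, 1949 and 1752 in condition A. A single library, Luciferase A1, was far below the rest. The authors' log2 fold change was −0.02 in the 6T table and 0.50 in the Luciferase table, the largest of the members there, with an unadjusted p of 0.0984 and an adjusted p of 1 in their DESeq test. Limma gave 0.60 ± 0.30 (SE) for the Luciferase libraries, and 0.18 when Luciferase A1 was left out. In condition A, PPP1CC was at −0.85 ± 0.26 with the Luciferase relative to the 6T sgRNA (limma adjusted p = 0.0706), which became −0.44 without Luciferase A1 and −1.09 without Luciferase A2, where it passed the threshold (adjusted p = 0.0389).

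PPP1R12A, the myosin-targeting subunit, had 534, 411 and 391.6 normalized reads in 6T condition B and 429, 599 and 347 in 6T condition A, and 379, 517 and 583 in Luciferase condition B and 254, 393 and 407 in Luciferase condition A. Luciferase A1 was again the lowest library. The authors' log2 fold change was −0.04 in the 6T table and 0.49 in the Luciferase table, where the unadjusted p was 0.150 and the adjusted p was 1 in their DESeq test. Limma gave 0.49 ± 0.21 (SE, unadjusted p = 0.0457, adjusted p = 0.454), and 0.28 without Luciferase A1.

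The other 3 regulators overlapped between conditions in both tables. PPP1R2, or inhibitor-2, kept to 325 to 407 normalized reads in 6T condition B and 318 to 387 in 6T condition A, and to 338 to 353 in Luciferase condition B and 311 to 356 in Luciferase condition A. PPP1R8, the nuclear inhibitor NIPP1, had 1240 to 1641 in 6T condition B and 1400 to 1842 in 6T condition A, and 1452 to 1529 in Luciferase condition B and 1208 to 1610 in Luciferase condition A. PPP1R11, or inhibitor-3, had 441 to 521 in 6T condition B and 434 to 634 in 6T condition A, and 472 to 534 in Luciferase condition B and 420 to 509 in Luciferase condition A. Their authors' log2 fold changes lay between −0.11 and 0.08 over both tables, with adjusted p-values of 1. Counted over the 9 members, libraries did not overlap for 1 in each table, PPP1R14B under the 6T sgRNA (background 7.89% of 13850 genes) and PPP1R14C under the Luciferase sgRNA (background 15.9% of 13778 genes). The count in the 6T table includes the gene that chose the members, and 1 of 9 in the Luciferase table is near the background.

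Levels of different genes were compared as normalized reads per kilobase of merged exons, averaged over the 4 groups. PPP1CA was first at 887 per kilobase, then PPP1R14B at 699, PPP1R8 at 526 and PPP1CC at 458. A second tier held PPP1R11 at 196, PPP1CB at 192 and PPP1R14C at 166 per kilobase, and the lowest were PPP1R2 at 100.3 and PPP1R12A at 73.5. PPP1R11 and PPP1CB, next to each other in this order, overlapped over the 12 libraries (165 to 250 for PPP1R11, 107 to 288 for PPP1CB). PPP1CA (792 to 1039) and PPP1R14B (452 to 907) also overlapped, as did PPP1R14B and PPP1R8 (428 to 654). The order at the top depends on the length used: with the longest transcript of each gene, PPP1R14B came first at 1178 per kilobase and PPP1CA second at 918, because 982 of the 1655 merged exonic bases of PPP1R14B belong to its longest transcript. Over the 12 libraries the SD was 21.3% of the mean for PPP1R14B, 26.4% for PPP1CC, 23.3% for PPP1R12A and 23.2% for PPP1CB, and between 7.48% and 11.7% for the other 5.

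Set against the summed catalytic subunits, per kilobase, PPP1R14B stood at 0.532, 0.502 and 0.486 in 6T condition B, or 0.507 ± 0.023, and at 0.304 to 0.318 in 6T condition A, or 0.312 ± 0.0075 (SD, n = 3 each). The ratio was 0.475 ± 0.090 in Luciferase condition B and 0.534 ± 0.038 in Luciferase condition A (SD, n = 3 each). The group with the low PPP1R14B level also had the low ratio. The summed catalytic subunits were 1631 ± 88.4 per kilobase in 6T condition B and 1581 ± 155 in 6T condition A. The low ratio thus restates the level that chose PPP1R14B and is not a separate observation. With longest-transcript lengths the ratios became 0.660 in 6T condition B and 0.403 in 6T condition A, and 0.631 in Luciferase condition B and 0.745 in Luciferase condition A. PPP1R14B per PPP1R14C, another ratio per kilobase, was 4.66 ± 0.75 in 6T condition B and 2.93 ± 0.26 in 6T condition A, and 4.40 ± 0.80 in Luciferase condition B and 5.02 ± 0.66 in Luciferase condition A.

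**Figure D2:**
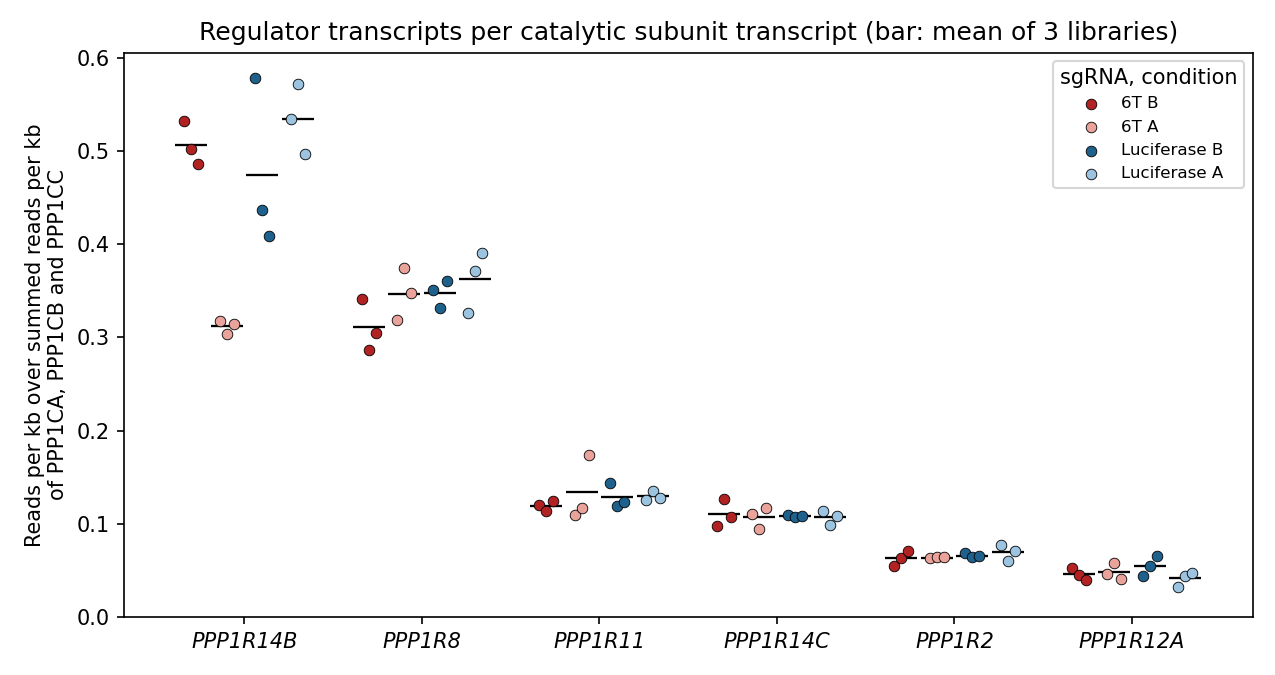
Level of each regulator per kilobase over the summed level per kilobase of PPP1CA, PPP1CB and PPP1CC (y axis, a ratio, from 0) in each library. Points are libraries and bars means of 3; PPP1R14B at 0.304 to 0.318 in 6T condition A lies below its other groups. For each of the other 5 regulators, conditions B and A overlap under the same sgRNA, while groups of different sgRNAs need not (PPP1R11 reached 0.124 at most in 6T condition B and 0.126 at least in Luciferase condition A).

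For the other regulators the ratios to the catalytic subunits overlapped between conditions B and A of the same sgRNA. PPP1R8 was at 0.311 ± 0.028 in 6T condition B and 0.347 ± 0.028 in 6T condition A, and PPP1R14C at 0.110 ± 0.015 in 6T condition B and 0.107 ± 0.011 in 6T condition A (SD, n = 3 each). Among the catalytic subunits, PPP1CA made up 55.1% of the sum per kilobase in 6T condition B and 52.8% in 6T condition A, and 57.8% in Luciferase condition B and 67.1% in Luciferase condition A. PPP1CC made up 32.4% in 6T condition B and 33.7% in 6T condition A, and 29.6% in Luciferase condition B and 22.0% in Luciferase condition A, where it ranged from 12.7% to 27.8%. Over 18 two-sided exact permutation tests of these ratios, shares and sums, those with PPP1R14B left out, the adjusted p was 0.9 in each, and 3 libraries against 3 allow no p below 0.1.

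The wider PP1 family was read from 9 lists of catalytic subunits and regulators, which held 63 symbols, 62 of them in the tables and 53 with a mean of at least 10 normalized reads. Under the 6T sgRNA, 23 of the 53 were higher in condition B and 30 lower, at a median log2 of −0.02, against −0.03 over all 14051 genes at that mean, of which 42.2% were higher and 57.8% lower. The authors' test called 1 of them, PPP1R14B, and 2, PPP1R14B and PPP1R35, had an unadjusted p under 0.05 (background 0.868%). The libraries of 2 were entirely higher in condition B (background 4.17%) and of 3 entirely lower (background 3.73%), among 52 with recovered libraries. Under the Luciferase sgRNA, 26 were higher and 27 lower, with a median of −0.002 against −0.005 over all 14087 genes at that mean, of which 49% were higher and 51% lower. The authors' test called 0 of them in that table (0 of 20194 genes, 0%), with 2 at an unadjusted p under 0.05 (background 1.22%). Libraries were entirely higher in condition B for 4 (background 6.48%) and entirely lower for 3 (background 9.42%), among 51 with recovered libraries.

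**Figure D3:**
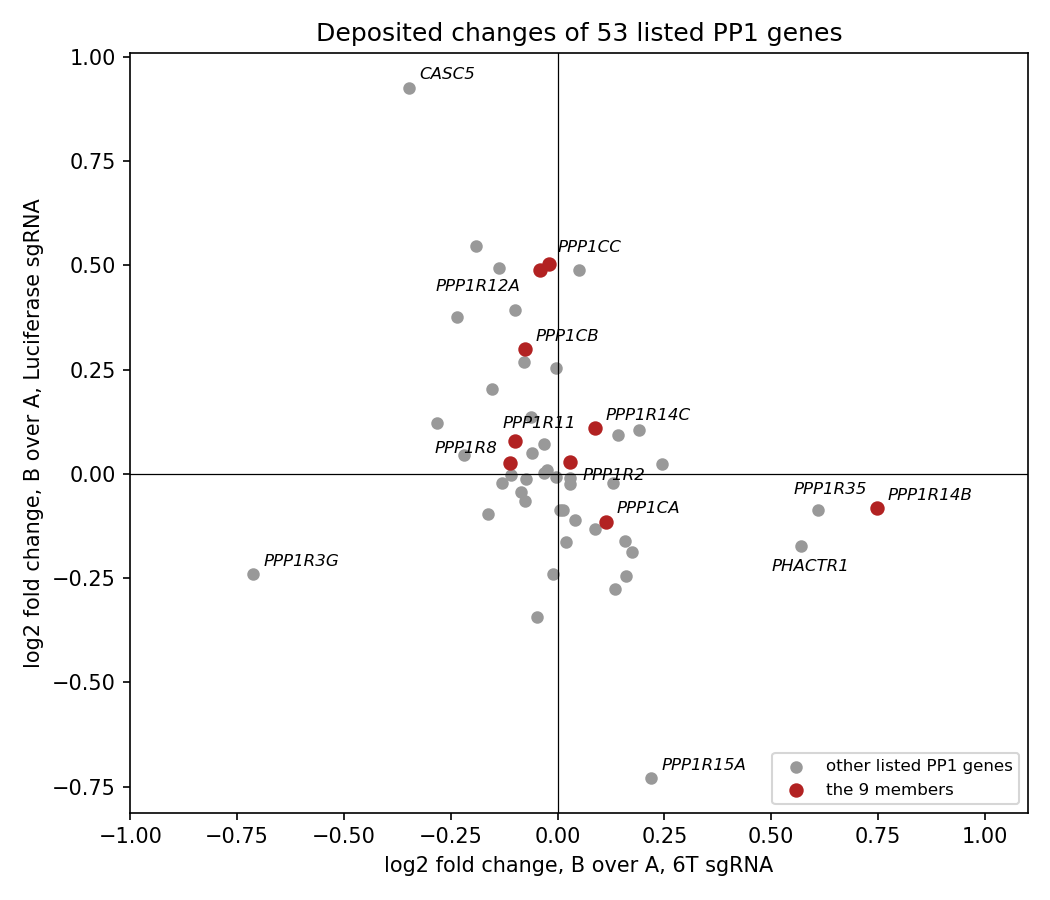
The authors' deposited log2 fold change, condition B over A, of 53 listed PP1 genes under the 6T sgRNA (x axis) and the Luciferase sgRNA (y axis), with the 9 members in red. PPP1R14B (0.75 and −0.08) and PPP1R35 (0.61 and −0.09) lie to the right under 6T and close to 0 under Luciferase.

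PPP1R35, a centrosomal protein, had the same low group as PPP1R14B. It had 557, 563 and 511 normalized reads in 6T condition B and 388, 346 and 334 in 6T condition A, and 476, 431 and 409 in Luciferase condition B and 514, 441 and 444 in Luciferase condition A. All 3 libraries of 6T condition A were again below the other 9, a pattern that 1.07% of genes had and that only PPP1R14B and PPP1R35 had among the listed PP1 genes with libraries recovered in all groups. The authors' log2 fold change under the 6T sgRNA was 0.61, with an unadjusted p of 0.000226 and an adjusted p of 0.395 in their DESeq test, so it did not pass. Limma gave a difference between the sgRNAs of 0.70 ± 0.15 on the log2 scale (SE, adjusted p = 0.479). In condition B, PPP1R35 was at −0.31 ± 0.11 with the Luciferase relative to the 6T sgRNA (SE, limma adjusted p = 0.901). In condition A it was at 0.39 ± 0.11 (limma adjusted p = 0.0601). After GC correction these became −0.30 (limma adjusted p = 0.377) and 0.13 (0.457). Libraries of 6T condition B (511 to 563) lay above those of Luciferase condition B (409 to 476), while those of PPP1R14B overlapped.

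The nuclear PP1 regulators were 12 measured genes, all of them lower in 6T condition B by their log2 fold change (median −0.10), as were 57.8% of all genes, with 0 called by the authors' test. Under the Luciferase sgRNA 7 were higher and 5 lower in condition B, with a median of 0.01. The largest value in both tables belonged to CASC5, a kinetochore scaffold, at −0.35 under the 6T and 0.93 under the Luciferase sgRNA, with an adjusted p of 1 in both. PPP1R10, or PNUTS, which holds PP1 on chromatin, had 1800, 1861 and 1796 normalized reads in 6T condition B and 1887, 1888 and 1867 in 6T condition A. It had 2203, 1968 and 1919 in Luciferase condition B and 2640, 2556 and 2534 in Luciferase condition A. Its libraries were entirely lower in condition B under both sgRNAs, with authors' log2 fold changes of −0.05 (6T) and −0.34 (Luciferase, unadjusted p 0.0485, adjusted p 1). Of all genes, 3.73% were entirely lower in condition B in the 6T table and 9.42% in the Luciferase table. In condition A it was 0.45 ± 0.07 higher with the Luciferase than with the 6T sgRNA (SE, limma adjusted p = 0.0369), and PPP1R10 and PPP1R14B were the 2 of 50 listed PP1 genes past the threshold there (background 0.986% of 13698 genes). The PPP1R10 call was lost in 8 of the 12 fits that left out a library (adjusted p 0.0513 to 0.131) and with no filter on low counts (adjusted p = 0.0546), and it held after GC correction (0.34, adjusted p = 0.0427).

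The remaining lists held no call. Among the stress-linked regulators, PPP1R15A, which directs PP1 to the translation factor eIF2 alpha, averaged 1056 normalized reads in 6T condition B and 907 in 6T condition A (log2 0.22), and 878 in Luciferase condition B and 1456 in Luciferase condition A (log2 −0.73, adjusted p 1 in both). Its Luciferase libraries did not overlap, at 966, 790 and 879 in condition B and 1880, 1214 and 1274 in condition A (background 9.42% entirely lower in condition B). The Luciferase libraries of PPP1R15B, of the same list, were entirely higher in condition B (log2 0.25, background 6.48%). Among genes with a mean of at least 50 normalized reads, the largest 6T value of the myosin phosphatase targeting subunits was 0.17, of PPP1R12C. At that mean the largest values of the actin-linked list were −0.24 for PHACTR3 under the 6T sgRNA and 0.49 for PPP1R9A, or neurabin, under the Luciferase sgRNA (unadjusted p 0.0410, adjusted p 1). Below it, PHACTR1 of that list was at 0.57 (6T) and −0.17 (Luciferase), on group means of 13.5 to 20.0 normalized reads. For the glycogen-targeting list the largest values at a mean of at least 50 were 0.24 for PPP1R3B (6T) and 0.10 for PPP1R3D (Luciferase). Below it, PPP1R3G was at −0.71 (6T, libraries entirely lower in condition B, background 3.73%) and −0.24 (Luciferase), on group means of 16.3 to 28.3, with an adjusted p of 1 in both. For the other inhibitor proteins the largest were 0.16 (6T) and −0.16 (Luciferase), both of ELFN1. SHOC2, which binds PP1 in a complex with RAS family proteins, was at 0.49 under the Luciferase sgRNA (unadjusted p 0.221 in the authors' DESeq test). Its libraries there overlapped, at 219 to 402 normalized reads in condition B and 145 to 260 in condition A, and Luciferase A1 was the lowest. Its longest transcript has 37.2% GC. Another list held 11 genes for other phosphatases of the same superfamily, including their non-catalytic subunits PPP2R1A, PPP2R1B and PPP3R1. Of the 11, 2 were higher and 9 lower in 6T condition B (median −0.04, background 42.2% and 57.8%). In Luciferase condition B 8 were higher and 3 lower (median 0.13, background 49% and 51%). The largest were PPP6C at −0.26 (6T) and PPP3CB, a calcineurin catalytic subunit, at 0.37 (Luciferase).

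No neighbour of PPP1R14B on chromosome 11 with a mean of at least 10 normalized reads had a 6T log2 fold change as large in size. Of these 14 neighbours, 10 were higher and 4 lower in 6T condition B (background 42.2% and 57.8%), at a median log2 of 0.06, and none was past the authors' adjusted threshold. Among neighbours with a mean of at least 50, the nearest in size was ESRRA, a nuclear receptor, at 749 normalized reads in 6T condition B and 659 in 6T condition A (log2 0.19), and the next were FKBP2 at 0.14, BAD at 0.13, PRDX5 at 0.12, VEGFB at 0.12, NUDT22 at 0.12, DNAJC4 at 0.08, GPR137 at 0.04, CCDC88B at 0.03 and PLCB3 at 0.03. TRMT112 was at −0.01, TRPT1 at −0.07 and STIP1 at −0.11. The 6T libraries of ESRRA and PRDX5 were entirely higher in condition B, 2 of the 14 (background 4.17%). Under the Luciferase sgRNA 2 of the 14 were higher and 12 lower in condition B, at a median of −0.15 (background 49% and 51%). Among those with a mean of at least 50, values ran from −0.27 for NUDT22 to 0.13 for CCDC88B. The longest transcripts of the 14 had 53.6% (TRMT112) to 67.5% GC (CCDC88B). Over all genes, the change rose with GC content under the 6T sgRNA and fell with it under the Luciferase sgRNA (Spearman's rho 0.412 and −0.697). Whether GC content accounts for these counts was not tested. The libraries of TEX40, a weakly expressed neighbour, were entirely lower in condition B under both sgRNAs, at 19.3 normalized reads in condition B and 25.1 in condition A (6T, log2 −0.38, background 3.73%) and 20.2 in condition B and 28.9 in condition A (Luciferase, log2 −0.51, background 9.42%).

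The genes most like PPP1R14B across the 12 libraries, by Pearson's r of log2 normalized reads among 11346 genes with a mean of at least 50, were PET100 (r = 0.97), a mitochondrial assembly factor of cytochrome c oxidase, HMX1 (0.96), a homeobox transcription factor, FOXD1 (0.95), a forkhead transcription factor, C8orf82 (0.95) and TAF10 (0.93), a subunit of TFIID. The 12 points share the authors' size factors and the GC dependence of the libraries, and they hold 1 group that stands apart. All 5 genes had the libraries of 6T condition A below the other 9, as 1.07% of genes did. They were chosen for likeness to a gene with that low group, so this follows largely from the choice and supports nothing. PET100 averaged 124 normalized reads in 6T condition B and 86.7 in 6T condition A, and 111 in Luciferase condition B and 123 in Luciferase condition A. Over the 9 libraries outside 6T condition A, a choice made after seeing the data, r was 0.91 for PET100, 0.88 for HMX1, 0.91 for FOXD1, 0.82 for C8orf82 and 0.74 for TAF10. PPP1R35 was the listed PP1 gene most like PPP1R14B, at r = 0.85 over 12 libraries and 0.56 over the 9, and PPP1CA came next at 0.54 over 12.

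**Figure D4:**
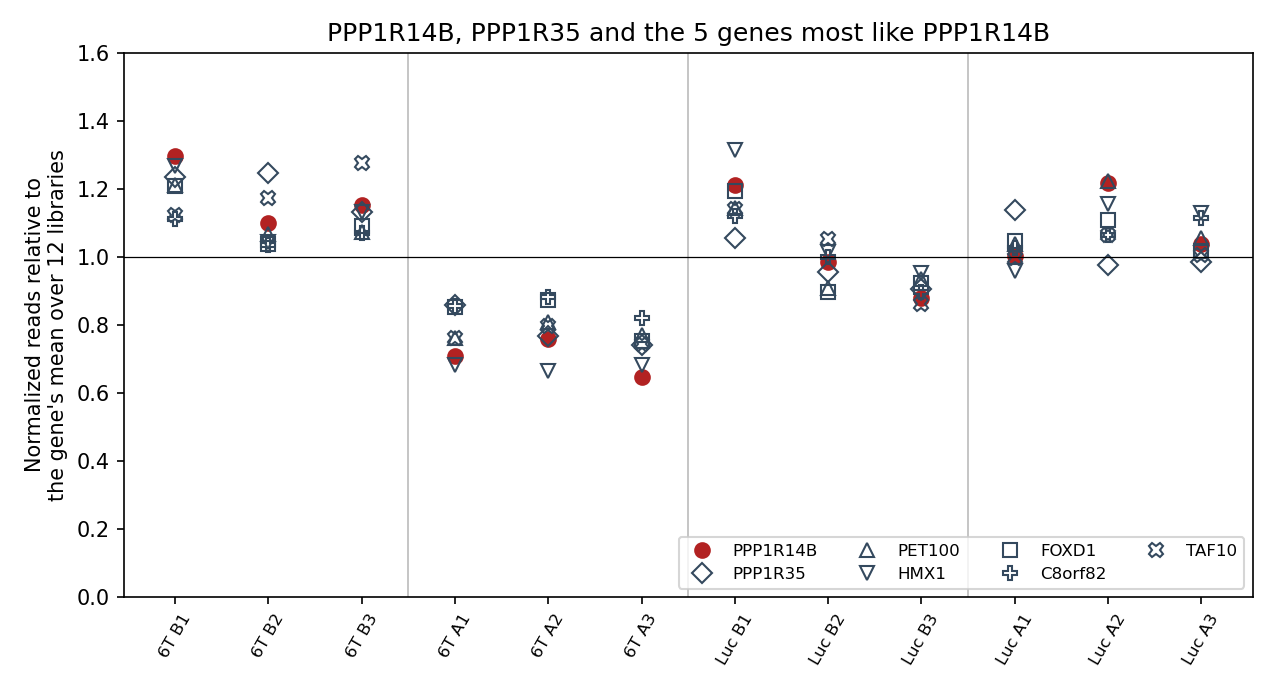
Normalized reads of PPP1R14B (red), PPP1R35 and the 5 genes most like PPP1R14B in each library, relative to the gene's mean over 12 libraries (y axis, from 0), with libraries along the x axis by group. The 5 genes were chosen for this likeness; in the 3 libraries of 6T condition A every one of the 7 genes is below 1.

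The deposited changes of all genes moved with GC content. The longest transcript of PPP1R14B has 68.0% GC, above 98.2% of annotated genes, and PPP1CA has 60.4%, while PPP1CB has 35.5%, PPP1R2 38.8%, PPP1R12A 39.1% and PPP1CC 40.3%. Across genes, which are not independent replicates, the authors' log2 fold change and transcript GC content had a Spearman's rho of 0.412 under the 6T sgRNA (13730 genes) and −0.697 under the Luciferase sgRNA (13761 genes). Within libraries, the rank correlation between GC content and a gene's deviation from its mean over the 12 libraries ranged from −0.699 (6T A2) to 0.803 (Luciferase A1), over 11218 genes. PPP1R14B had 877 normalized reads in 6T A2 and 1160 in Luciferase A1. It had 1502 in 6T B1 (rank correlation −0.482) and 820 in 6T A1 (−0.507). These libraries are examples only. PPP1CC, PPP1R12A and PPP1CB, all low in GC, were lowest in Luciferase A1. PPP1R2, of similarly low GC content, was not: it had 349 normalized reads in that library and 311 and 356 in the other libraries of Luciferase condition A.

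**Figure D5:**
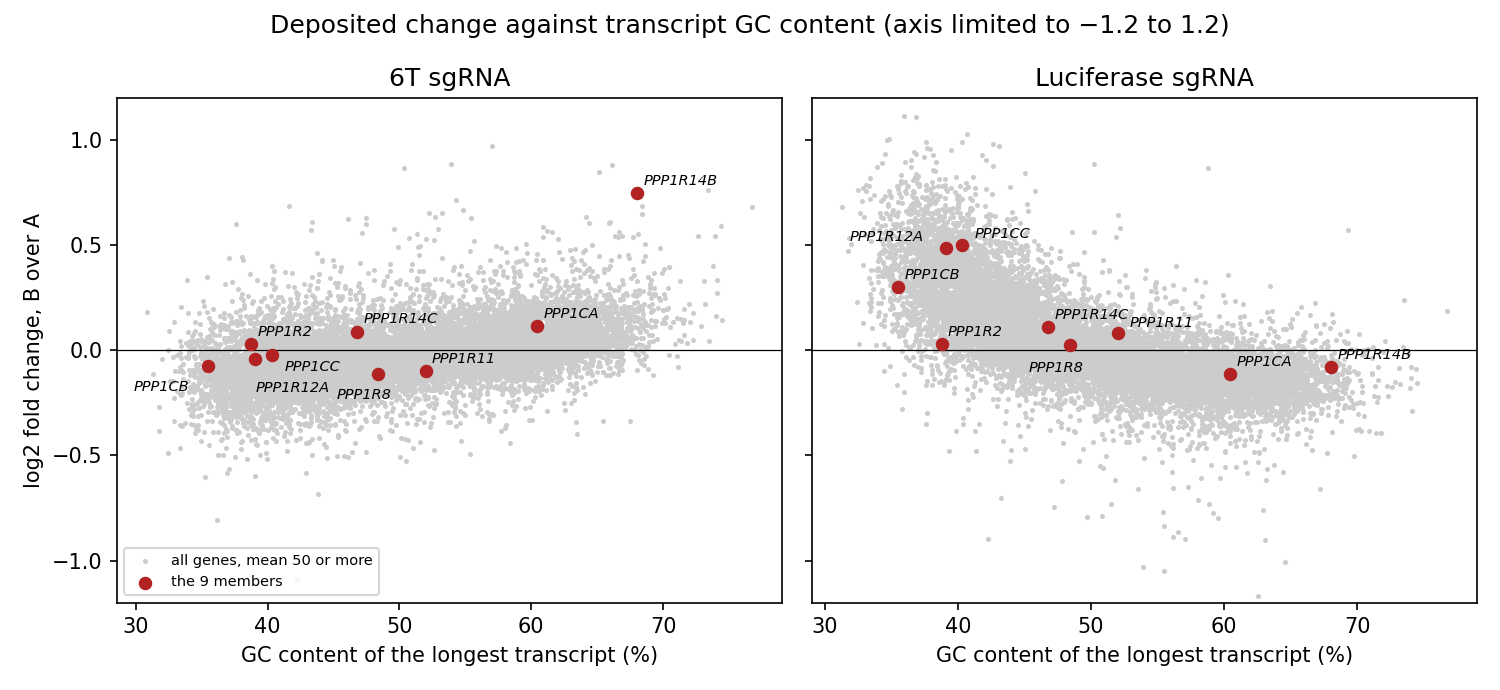
The authors' log2 fold change, condition B over A (y axis), against the GC content of the longest transcript in percent (x axis), for genes with a mean of at least 50 normalized reads (grey) and the 9 members (red), for the 6T sgRNA (left) and the Luciferase sgRNA (right). Points beyond the y axis are not shown; PPP1R14B at 68.0% GC lies above most grey points of its GC content under the 6T sgRNA and among them under the Luciferase sgRNA.

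Of 280 genes within 2 percentage points of the GC content of PPP1R14B, the median log2 fold change under the 6T sgRNA was 0.13, with 90% of the genes between −0.06 and 0.45, and 1 gene exceeded PPP1R14B, the gene chosen for its value there. Under the Luciferase sgRNA, 284 such genes had a median of −0.15 (90% between −0.31 and 0.05), and 71 exceeded PPP1R14B. After a correction for GC content, PPP1R14B was at 0.61 ± 0.10 under the 6T sgRNA (SE, limma adjusted p = 0.336), at 0.06 ± 0.12 under the Luciferase sgRNA (adjusted p = 0.891), and the difference between them was 0.55 ± 0.17 (adjusted p = 0.886). PPP1R35, at 66.0% GC, was at 0.50 under the 6T sgRNA after the correction. The Luciferase values of the low-GC members became 0.33 for PPP1CC, 0.19 for PPP1R12A, −0.08 for PPP1CB and −0.28 for PPP1R2, against limma's 0.60, 0.49, 0.33 and 0.03 before it. The value of PPP1R2 thus moved away from 0. Whether library differences in GC content produced any of these differences was not tested beyond this correction.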

How the data were processed

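PolyA RNA libraries were made with a VAHTS V2 kit, per the labels. Per the submitters' processing notes, which give no versions, the authors used STAR, the hg38 build, HTSeq and DESeq. The authors deposited 2 tables, 1 per sgRNA. Per the file headers, their signal values are mean reads per gene divided by size factors, over all libraries and per condition, the ratio is the authors' fold change (B over A), the log2 column is its log2, and the p-value columns are the authors' test and its adjusted value. Rows of unassigned reads were left out of all tests; reads in no gene were 16.3% to 17.8% of the total and non-unique alignments 19.4% to 24.6%.

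Each deposited mean is a sum of whole reads times 3 steps, 1 per library, which gave the size factors and then the reads of each library. Between 98.5% and 99.3% of genes above 0 had a single solution per group. Means over 8000 were not searched, and genes without a solution, 16.1% to 25.7% of the reads of a library, were left out of the fits. Higher means were searched only over splits in a window around equal libraries, while those of the members were searched over every split. On simulated means, all 72691 single solutions were the true reads. The simulated reads were drawn around recovered ones, so they do not cover genes whose libraries differ too widely for that window.

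Limma (3.58.1, R 4.3.3), with its trend option, modelled log2(normalized reads + 1) for genes with a mean of 10 or more, two-sided, with Benjamini-Hochberg adjustment over all genes; fold changes of low genes are understated on this scale. On simulated data it recovered 97% (6T, 18 false calls, 13752 genes) and 97.5% (Luciferase, 9 false calls, 13720 genes) of 200 genes changed 2-fold. The simulated counts had a preset spread and no GC dependence of the libraries, and PPP1R14B differed 1.68-fold. These shares are therefore not limma's sensitivity on the real libraries. Exact permutation tests used scipy 1.17.1. GC content and lengths came from GENCODE v29; 24602 of 26485 genes matched, 703 of them by an older symbol. The GC correction was a lowess fit (span 0.3). Intervals for counting error were not used.

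The members, the 12 gene lists and the tests were chosen with earlier results of these data known. 1 of the lists is not reported here. Beside the members, the text names the called gene, genes apart in the same direction under both sgRNAs, the largest change per list and table at a mean of 50 or more, neighbours at that mean and the 5 genes most like PPP1R14B. PPP1R14D, PHACTR1, PPP1R3G and PPP1R15B were named after their values were seen. Alternatives were another pseudocount (5), no filter, scaling to library totals, voom, GC correction, transcript length and leaving out each library. Library totals were in part estimated with the size factors, so scaling to them is not fully separate from the size factors.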

Additional observations from a re-analysis of the deposited data

How the results depend on the processing

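No paired analysis was possible because the tables hold condition means and the libraries recovered from them carry no replicate number. Log2 differences of the members under alternatives are given here by comparison; none of those that changed sign had passed an adjusted threshold, and scaling to library totals moved the median of all genes by less than 0.1. The cause of each change was not tested. PPP1R14B kept its sign under all alternatives in the 6T comparison (0.61 to 0.80) and in the difference between sgRNAs (0.55 to 0.96). The same 6T libraries chose the gene, so a kept sign is no support. Its limma adjusted p under these alternatives was 0.068 to 0.9999 in the 6T comparison and 0.31 to 0.89 in the difference.

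In the 6T comparison the count of listed PP1 genes past the adjusted threshold was 1 in the authors' test and 0 in limma, with a pseudocount of 5, with no filter, scaled to library totals, with voom, after GC correction, and without any 1 library. GC correction gave 0.066 for PPP1CB, 0.068 for PPP1CC and 0.066 for PPP1R12A, and scaling to library totals gave 0.0071 for PPP1CC. Leaving out a library in turn gave −0.28 to 0.20 for PPP1CB, −0.15 to 0.10 for PPP1CC, −0.20 to 0.19 for PPP1R12A, −0.073 to 0.10 for PPP1R2, −0.21 to 0.020 for PPP1R8 and −0.22 to 0.052 for PPP1R11.

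In the Luciferase comparison GC correction gave 0.026 for PPP1CA, −0.080 for PPP1CB, 0.059 for PPP1R14B and −0.28 for PPP1R2. Leaving out a library gave −0.22 to 0.015 for PPP1R14B, −0.029 to 0.070 for PPP1R2 and −0.093 to 0.11 for PPP1R8. For the difference between sgRNAs GC correction gave 0.14 for PPP1CB, 0.082 for PPP1R14C and 0.39 for PPP1R2, library totals gave 0.0021 for PPP1R2, and leaving out a library gave −0.082 to 0.028 for PPP1R14C and −0.10 to 0.072 for PPP1R2.

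Between sgRNAs within condition B, GC correction gave −0.022 for PPP1R11, and leaving out a library gave −0.094 to 0.026 for PPP1CA, −0.18 to 0.027 for PPP1CB, −0.078 to 0.041 for PPP1R11, −0.099 to 0.064 for PPP1R2 and −0.042 to 0.16 for PPP1R8. Within condition A, GC correction gave −0.019 for PPP1CA, 0.056 for PPP1CB, 0.038 for PPP1R12A and 0.38 for PPP1R2, and leaving out a library gave −0.10 to 0.036 for PPP1R2 and −0.17 to 0.042 for PPP1R8. The count of listed PP1 genes past the threshold there was 2 of 50 in the reported fit (0.986% of all genes). It was 2 with a pseudocount of 5 (1.06%) and 3 scaled to library totals (2.28%). It was 0 of 57 with no filter (0.0297%), 1 after GC correction (0.157%) and 0 to 6 without a library (0% to 8.85%). The 6 were without Luciferase A2, where 1213 of 13712 genes (8.85%) passed.

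PPP1R14B per summed catalytic subunits was 0.660 (6T B), 0.403 (6T A), 0.631 (Luciferase B) and 0.745 (Luciferase A) with longest-transcript lengths. Of the 5 genes most like PPP1R14B, 3 were shared by Spearman's rho, and 2 by Pearson's r over the 9 libraries outside 6T condition A, an alternative chosen after seeing the data. The member with the lowest level per kilobase, PPP1R12A, rested on 154 to 2279 reads per library, and the Luciferase condition B libraries were deeper than the rest.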
